A study of Homo sapiens with 8 samples.

Results

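The ubiquitin system marks proteins for destruction by the proteasome, and 104 of the 3666 genes in the deposited table belong to it by their symbols. They are the rows whose symbol begins with PSMA to PSMG, UBA or UBE and a digit, USP and a digit, FBX, CUL and a digit, RNF and a digit, or TRIM and a digit. Classed by symbol, they comprised 24 proteasome genes, 2 activating enzymes, 13 conjugating enzymes and 51 ligases or ligase parts. The rest were 12 deubiquitinases and 2 antisense RNAs named after proteasome genes. The activity of single genes was not checked. The samples were wild-type MIA PaCa-2, a long-established line from a human pancreatic ductal adenocarcinoma, grown in RPMI with serum and given no drug. All cells met lactate-containing medium for a short time and were then washed. They were sorted by how readily lactic acid crossed their membrane, into a fraction of low and a fraction of high permeability, PHLac-low and PHLac-high. Messenger RNA of each fraction was sequenced in 4 paired repeats, which gave 4 PHLac-low and 4 PHLac-high libraries.

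In this system an activating enzyme loads ubiquitin, or a relative such as SUMO, NEDD8, UFM1 or ISG15, and hands it to a conjugating enzyme. A ligase then brings the loaded enzyme to its substrate: RING ligases do so directly, and cullins do so as scaffolds on which F-box and other receptor proteins hold the substrate. Deubiquitinases remove or trim the chains, and the proteasome, a 20S barrel capped by a 19S particle of ATPases and lid subunits, unfolds and cuts the tagged protein. In carcinoma cells the system sets the lifetime of cell cycle, stress and signalling proteins.

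Values are normalised counts, reads per gene divided by 1 size factor per library. The smallest step between the values of a library was taken as 1 read. By that count the 3666 genes held from 8979276 to 23176205 reads per library, and the fewest reads of any member in any library were 5. Every gene in the table had been listed for an adjusted p-value of at most 0.05, so the count of members past the threshold is set by that selection. The adjusted p-values given here were likewise computed over these preselected genes only. With limma and the repeat as a pairing term, all 104 members passed a Benjamini-Hochberg adjusted p of 0.05, beside 99.9% of the listed genes. Of the members, 85 were higher and 19 lower in PHLac-high, against 58.7% higher and 41.2% lower in the whole table. Their median log2 change was 0.28, and that of all listed genes was 0.25. In bulk samples a difference in the share of cells that express a gene and a difference in RNA per cell cannot be told apart.

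The table held 102 of the 412 protein-coding genes that these symbol patterns match in GENCODE release 29 (24.8%), beside 16.7% of all annotated protein-coding genes. The share was 49% for proteasome symbols (24 of 49), 75% for cullins (6 of 8) and 35.1% for UBE2 conjugating enzymes (13 of 37). It was 23.3% for RNF, 21% for F-box, 15.2% for USP and 14.1% for TRIM symbols. Genes outside the table were not analysed here.

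The median change depended on scaling: upper-quartile scaling over the listed genes, which lowers every change by construction, moved it from 0.25 to 0.02. Changes near 0.25 are near the centre of this table. All its genes were listed for differing, so that centre is not a level of no change. The centre of all expressed genes is not known here. Repeat 4 stood apart from the others. Without it, 3 members moved by over 1.5 times, PSMC5 from 0.23 to 0.14, PSME3 from 0.23 to 0.15 and FBXO2 from -0.49 to -0.31, and 1 lost its call, RNF126 (0.16, limma adjusted p = 0.0525). Across the 11 heat shock genes examined, from HSPA1A to HSPB1, all 11 were higher in PHLac-high, beside 58.7% of the whole table. They rose by 0.21 (HSPB1) to 5.81 (HSPA6) on the log2 scale, with a median of 1.29. Under upper-quartile scaling HSPB1 changed by -0.015 and did not pass (limma adjusted p = 0.845), while the others stayed above 0. The part of heat shock genes in the results was not tested. Of 7 carcinoma markers, 1 was in the table (KRT19, log2 change 0.23), and of 7 markers of other cells 4 were. PTPRC, the leukocyte antigen CD45, averaged 262 normalised counts over PHLac-low and 103 over PHLac-high. COL1A1 averaged 137 and 85.0, ACTA2 229 and 116, and the macrophage marker CD68 1428 and 2189, and the part of such markers in the results was not tested.

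**Figure D1:**
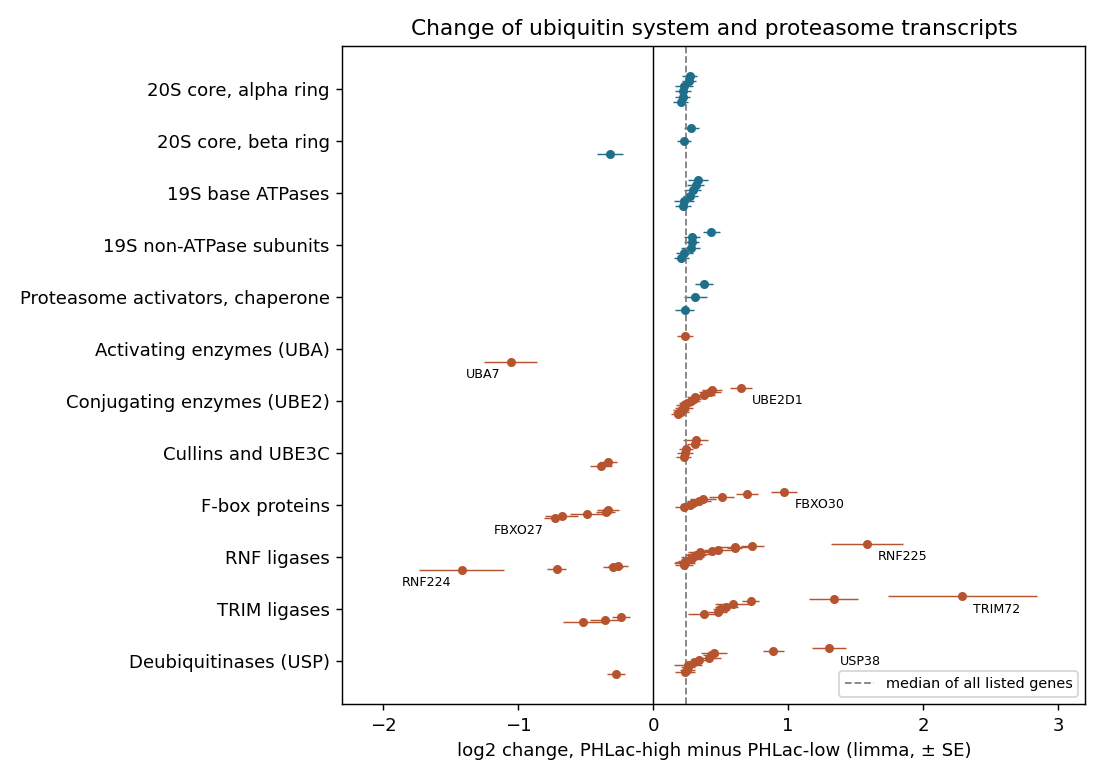
Log2 change of PHLac-high over PHLac-low for the 102 protein-coding members, 1 point a gene with its limma standard error. The vertical axis holds the groups of members. Proteasome genes (blue) lie in a narrow band at the dashed line, the median of all listed genes (0.25), apart from 1 beta ring subunit on the negative side. Ligases and deubiquitinases reach from -1.42 (RNF224) to 2.29 (TRIM72), both genes with a mean below 100 normalised counts.

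With the deposited scaling, listed transcripts of the constitutive proteasome were higher in PHLac-high by a small and nearly uniform amount, near the table's centre. The selection for a low adjusted p leaves out genes with smaller changes at a like spread, and 24 of the 49 proteasome symbols were listed. All 23 proteasome genes other than PSMB9 rose with the deposited scaling, by 0.21 to 0.43 on the log2 scale, where 58.7% of listed genes were higher. They did so in each of the 4 repeats (96.1% of listed genes kept 1 direction in all 4). Under upper-quartile scaling 5 of the 23 turned slightly negative and 1, PSMD12, still passed as higher, beside 23.2% of listed genes. Within 0.1 of the table's median change lay 21 of the 23. The members covered 6 alpha and 3 beta ring genes of the 20S core, all 6 ATPases of the 19S base, 6 further 19S subunits, the activators PSME3 and PSME4, and the assembly chaperone PSMG1.

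Among the listed genes the change was alike along the particle. Its median was 0.22 for the alpha ring, whose ring gates the barrel, 0.28 for the ATPases that unfold substrates, 0.28 for the other 19S subunits and 0.31 for the activators and the chaperone. PSMD12, a lid subunit, had the highest value in the class. It was counted at 2675, 2406, 2272 and 3888 in PHLac-low repeats 1 to 4, and at 3780, 3002, 2908 and 5688 in PHLac-high. Each PHLac-high library exceeded its own partner, but the groups overlapped because both libraries of repeat 4 were high. Its log2 change was 0.43 ± 0.06 (SE; adjusted p = 0.000572 in limma).

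PSME4, which encodes the activator PA200, was counted at 3324, 2927, 2651 and 3622 in PHLac-low and at 4103, 3379, 3796 and 5024 in PHLac-high. Its log2 change was 0.38 ± 0.07 (SE; adjusted p = 0.00153 in limma). PSMC4, an ATPase of the base, rose by 0.33 ± 0.08, and PSMC6, another, by 0.31 ± 0.06 (SE). PSMD2, the large scaffold subunit of the base, had the most reads of the class, with 23134, 18148, 14968 and 27044 in PHLac-low and 26801, 20593, 17003 and 39069 in PHLac-high. The spread between its repeats was larger than its change of 0.28 ± 0.07 (SE). PSMD14, the lid deubiquitinase that strips chains before degradation, rose by 0.29 ± 0.06, and PSMG1, which helps to assemble the alpha ring, by 0.31 ± 0.09 (SE).

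The remaining subunits followed closely. In the alpha ring the log2 change was 0.22 for PSMA1, 0.21 for PSMA2, 0.27 for PSMA3, 0.26 for PSMA4, 0.22 for PSMA5 and 0.23 for PSMA7. In the beta ring PSMB1 rose by 0.28 and PSMB7, which carries a trypsin-like site, by 0.23. Among the ATPases the values were 0.22 for PSMC1, 0.28 for PSMC2, 0.29 for PSMC3 and 0.23 for PSMC5. PSMD6, PSMD7 and PSMD13 rose by 0.23, 0.21 and 0.29, and PSME3, the nuclear activator PA28 gamma, by 0.23. Under upper-quartile scaling the genes below 0 were PSMA1, PSMA2, PSMA5, PSMC1 and PSMD7, each by at most 0.02.

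PSMB9 was the exception. It encodes a catalytic subunit that replaces a constitutive one in the immunoproteasome, a form of the particle induced by interferon. PHLac-low repeats 1 to 4 had 615, 495, 716 and 450 normalised counts and PHLac-high 559, 348, 635 and 326 in PHLac-high. It was lower in PHLac-high in all 4 repeats, but the groups overlapped. The log2 change was -0.32 ± 0.10 (SE; adjusted p = 0.012 in limma), and without repeat 2 it was -0.26 and did not pass (adjusted p = 0.0612).

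Proteasome genes varied more between repeats than between fractions. The median SD of the log2 value over the 4 PHLac-low libraries was 0.30 for proteasome genes and 0.24 for all listed genes, against the class median change of 0.27. The PHLac-low library of repeat 4 was the highest of its group for 23 of the 24 genes, beside 34.9% of the listed genes, and the difference was largest in repeat 4 for 19 of them, beside 37.8%. The groups overlapped for all 24, where 36.7% of listed genes had groups that did not overlap. Without the pairing by repeat (no replicate block) 0 of the 24 passed in limma, beside 31.0% of the listed genes (no proteasome adjusted p was below that of PSME4, 0.0697). Without repeat 4 all 24 passed again, beside 98.9% of listed genes, with a median of 0.21, below the 0.22 of the whole table in the same fit.

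**Figure D2:**
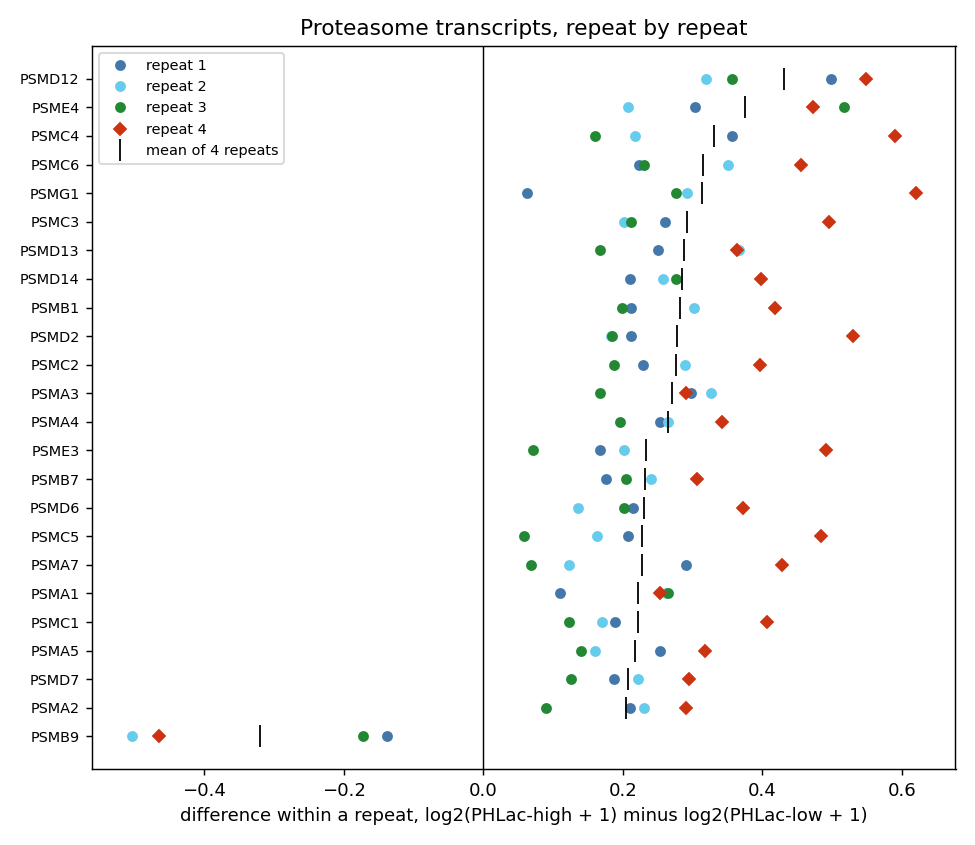
Difference within each repeat, log2(PHLac-high + 1) minus log2(PHLac-low + 1), for the 24 proteasome genes ordered by their mean (black tick). Every difference of 23 genes is above 0, mostly with repeat 4 (red diamonds) farthest to the right, and every difference of PSMB9 is below 0.

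The 250 bases before the transcription starts of the members were searched on both strands for 5 motifs fixed as letters: CCAAT, TGACNNNGC (bound by NFE2L1 and NFE2L2, which control proteasome and antioxidant genes), GAANNTTC (heat shock factor), TTCNNNGAA (STAT proteins) and TGACGTCA (cyclic AMP response element). The listed proteasome genes changed by amounts near the table's centre, and shared control of them was not tested. The RefSeq promoter table of build GRCh38.p14 held 83 members, of which 21 were proteasome genes. CCAAT was present in 12 of these 21 (57.1%) and in 33% of all 27305 promoters of the table. TGACNNNGC was present in 4 of 21 (19%) against 11%, TTCNNNGAA in 3 of 21 (14.3%) against 6.78%, and the other pair of motifs in 0 of 21 against 5.85% and 1.77%. The median GC content of the window was 62.8% for proteasome promoters and 58% for all, and no test was made. Stretches of 60 bases around a match are printed for 4 proteasome promoters with CCAAT, as the motif most often present, with every CCAAT or its reverse complement ATTGG in capitals.
PSMA3, chr14:58244780-58244839, plus strand: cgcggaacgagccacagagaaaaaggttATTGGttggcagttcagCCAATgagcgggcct
PSMA5, chr1:109426471-109426530, minus strand: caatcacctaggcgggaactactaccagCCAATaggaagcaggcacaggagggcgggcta
PSMC3, chr11:47426522-47426581, minus strand: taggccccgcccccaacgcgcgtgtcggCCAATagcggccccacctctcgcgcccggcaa
PSMD14, chr2:161308349-161308408, plus strand: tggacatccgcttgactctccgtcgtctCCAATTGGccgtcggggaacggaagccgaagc
All 4 genes rose by 0.22 to 0.29. In PSMD14 the capitals hold a match on each strand that overlap each other.

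The NFE2L1 and NFE2L2 motif is shown for the 2 proteasome genes with the largest changes, PSMD12 and PSME4, and for the chaperone gene PSMG1, with the match in capitals.
PSMD12, chr17:67366709-67366768, minus strand: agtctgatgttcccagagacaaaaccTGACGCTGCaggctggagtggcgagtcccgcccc
PSME4, chr2:53970994-53971053, minus strand: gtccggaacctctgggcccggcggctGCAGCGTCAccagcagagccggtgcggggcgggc
PSMG1, chr21:39183601-39183660, minus strand: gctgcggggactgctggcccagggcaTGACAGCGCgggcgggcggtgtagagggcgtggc
The fourth proteasome promoter with this match was that of PSMB9, the subunit that was lower. No match of one motif overlapped a match of another in the 83 promoters. A match of letters describes the sequence and is not evidence of binding.

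Of the activating enzymes, UBA7 was lower in PHLac-high. It activates ISG15, an interferon-induced modifier. PHLac-low libraries had 238, 197, 457 and 151 normalised counts and PHLac-high libraries 133, 131, 230 and 42.4. Each PHLac-high library was below its partner, and the groups overlapped because repeat 3 was high in both fractions. The log2 change was -1.05 ± 0.20 (SE; adjusted p = 0.00175 in limma), -0.80 without repeat 4, and it did not pass without the pairing (adjusted p = 0.104).

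All 13 conjugating enzymes in the table rose with the deposited scaling, beside 58.7% of the listed genes. They rose by 0.18 to 0.65 on the log2 scale with a median of 0.28. Under upper-quartile scaling 3 of them, UBE2G1 and UBE2K included, turned slightly negative. In that fit 3 of the 13 passed as higher, a share close to the 23.2% of listed genes. UBE2D1, a general partner of RING ligases, changed most. It was counted at 485, 560, 584 and 543 in PHLac-low and at 799, 877, 964 and 777 in PHLac-high. Every PHLac-high library lay above every PHLac-low library. Its log2 change was 0.65 ± 0.08 (SE; adjusted p = 0.000264 in limma) and remained 0.43 under upper-quartile scaling. Groups did not overlap for 3 of the 13 genes, all with PHLac-high above, beside 23.3% of the listed genes.

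UBE2B, which serves RAD18 and RNF20 type ligases in DNA repair and histone marking, had 1656, 1743, 1688 and 1748 in PHLac-low and 2153, 2570, 2492 and 2079 in PHLac-high. These groups did not overlap, and the log2 change was 0.44 ± 0.07 (SE; adjusted p = 0.00109 in limma). UBE2S, which extends chains for the anaphase-promoting complex, went from 14431 ± 4184 to 20163 ± 8910 (SD, n = 4). The groups overlapped, and the difference was 0.55, 0.25, 0.20 and 0.68 within repeats 1 to 4 (0.42 ± 0.08, SE). UBE2D3, the close relative of UBE2D1, rose by 0.31, and UBE2N with its partner UBE2V2, which build lysine-63 chains, by 0.23 each. UBE2A, a relative of UBE2B, rose by 0.31, UBE2O by 0.37, UBE2E3 by 0.28 and UBE2L3 by 0.25. The smallest changes were 0.18 for UBE2G1 and 0.21 for UBE2K.

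Ligases, the largest class, spread most widely. Of 51 ligase genes, 37 rose and 14 fell, beside 58.7% and 41.2% of the listed genes. The median was 0.29 and the range ran from -1.42 to 2.29. Both ends were genes at low counts, RNF224 (mean 52.7 normalised counts) and TRIM72 (31.8). At a mean of at least 100 the ligases ran from -0.73 for FBXO27 to 0.97 for FBXO30. Of all 51, groups did not overlap for 22 with PHLac-high above and for 6 with PHLac-high below, beside 23.3% and 13.4% of all 3666 listed genes. Upper-quartile scaling lowers every change by nearly the same amount, so the 14 ligases that fell could only fall further. All 14 passed as lower, as did 41.2% of the listed genes. The smallest rise, 0.23 for CUL1, became 0.00072, so no ligase turned sign. In that fit 15 passed as higher, beside 23.2% of the listed genes.

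Among cullins and UBE3C, 5 of 7 rose by 0.23 to 0.31 and 2 fell, beside 58.7% and 41.2% of the listed genes. CUL1, CUL3, CUL4A and CUL4B are the scaffolds of the classical cullin ligases and changed by 0.23, 0.24, 0.31 and 0.31. CUL4B had 5405, 5826, 4626 and 5555 in PHLac-low and 6448, 7338, 7223 and 5655 in PHLac-high. Its difference was 0.64 in repeat 3 and 0.03 in repeat 4. The large scaffolds CUL7 and CUL9, which both bind p53, went down. CUL7 had 4701, 4640, 4800 and 3199 in PHLac-low and 3875, 3771, 3972 and 1966 in PHLac-high. Both repeat 4 libraries were far below the others, and the change of -0.39 ± 0.08 (SE; adjusted p = 0.00278 in limma) was -0.28 without that repeat. After correction for transcript GC content and length neither passed, at -0.11 for CUL7 and -0.14 for CUL9. Before it CUL9 changed by -0.33 ± 0.06 (SE), and UBE3C, a HECT ligase that works at the proteasome, by 0.24 ± 0.05 (SE) with groups that did not overlap.

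Of 13 F-box genes, 8 rose and 5 fell (61.5% higher, near the 58.7% of the listed genes). FBXO30 changed most, with 1243, 1238, 1368 and 2016 in PHLac-low and 2786, 2649, 2764 and 3064 in PHLac-high. The PHLac-low library of repeat 4 stood nearest to the PHLac-high values, but the groups did not overlap. The log2 change was 0.97 ± 0.09 (SE; adjusted p = 0.000117 in limma). FBXL14, which targets the SNAI1 family of transcription factors, was counted at 666, 683, 680 and 773 in PHLac-low and at 1125, 1203, 946 and 1275 in PHLac-high, again without overlap, a change of 0.69 ± 0.08 (SE; adjusted p = 0.000237 in limma). FBXW7, a tumour suppressor that targets cyclin E and MYC, averaged 544 ± 100.3 and 782 ± 182 (SD, n = 4), a rise of 0.51 ± 0.09 (SE).

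The F-box genes that fell included FBXO27 and FBXO2, whose products recognise glycoproteins. FBXO27 had 825, 1036, 807 and 744 in PHLac-low and 495, 671, 511 and 402 in PHLac-high. No PHLac-high library reached the lowest PHLac-low library, and the change was -0.73 ± 0.08 (SE; adjusted p = 0.000197 in limma). FBXO2 changed by -0.49 ± 0.12, with -1.04 in repeat 4 and -0.24 to -0.36 in the others, and FBXL8 by -0.68 ± 0.12 (SE). FBXO46 and FBXL16 changed by -0.35 and -0.34. After correction for transcript GC content and length the change of FBXL16 turned to 0.06, and those of FBXL8, FBXO2 and FBXO46 no longer passed, while FBXO27 stayed at -0.63. The other F-box genes, FBXL18, FBXO34, FBXO33, FBXO28 and FBXO45, rose by 0.37, 0.34, 0.30, 0.27 and 0.23.

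Of 20 RNF genes, 16 rose and 4 fell (80% higher, beside 58.7% of the listed genes). RNF6, a RING ligase, had 1778, 2033, 2013 and 1931 in PHLac-low and 2814, 3174, 3011 and 2778 in PHLac-high. The PHLac-high libraries were all above the PHLac-low libraries, with a log2 change of 0.60 ± 0.06 (SE; adjusted p = 0.000117 in limma). RNF182 went from 411 ± 125 to 685 ± 218 (SD, n = 4), by 0.73 ± 0.09, and RNF122 from 169.9 ± 32.1 to 258 ± 40.1, by 0.61 ± 0.12 (SE). At low counts, RNF225 had 21.4, 23.4, 19.7 and 5.14 in PHLac-low and 74.8, 64.8, 77.5 and 13.2 in PHLac-high, a change of 1.58 ± 0.26 (SE). Both repeat 4 libraries of RNF225 were far below the rest.

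RNF207 was the RNF gene at higher counts that fell most, with 1629, 1513, 2296 and 1310 in PHLac-low and 1078, 948, 1261 and 790 in PHLac-high. The groups did not overlap, and the log2 change was -0.71 ± 0.07 (SE; adjusted p = 0.000128 in limma). RNF31, the catalytic subunit of the linear ubiquitin chain assembly complex, changed by -0.30 ± 0.07 and, after correction for GC content and length, by -0.01. RNF144A changed by -0.26 ± 0.07, and RNF224, at 77.2 ± 38.9 and 28.2 ± 13.4 in the low and high fractions (SD, n = 4), by -1.42 ± 0.31 (SE). The other 12 RNF genes rose by 0.23 to 0.48, with the upper end at RNF219 and RNF103 (0.44), a ligase of the endoplasmic reticulum.

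Of 11 TRIM genes, 8 rose and 3 fell (72.7% higher, beside 58.7% of the listed genes). Their median change of 0.49 was the highest of the member groups. TRIM16 had 1045, 1263, 1216 and 1405 in PHLac-low and 1644, 2105, 2077 and 2330 in PHLac-high. All PHLac-high libraries were above all PHLac-low libraries, and the change of 0.72 ± 0.06 (SE; adjusted p = 7.79e-05 in limma) was 0.65 to 0.77 within every repeat. TRIM16L, a close copy of TRIM16 with which reads may be shared, changed by 0.54 ± 0.08 (SE), so the division between them is uncertain. TRIM52 had 421, 384, 373 and 392 in PHLac-low and 677, 584, 731 and 425 in PHLac-high, a change of 0.59 ± 0.13 (SE) that was 0.12 in repeat 4.

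TRIM72, a membrane repair protein of muscle, was barely counted, at 5.15, 17.2, 6.23 and 6.16 over PHLac-low and at 109, 44.6, 56.1 and 10.6 over PHLac-high. The PHLac-high library of repeat 4 fell within the PHLac-low range, and the change of 2.29 ± 0.55 (SE; adjusted p = 0.00478 in limma) ranged from 0.69 to 4.16 within repeats. TRIM36, with a mean below 100 normalised counts over the libraries, rose by 1.34, TRIM26 by 0.49, TRIM55 by 0.48 and TRIM5, a retroviral restriction factor, by 0.37. TRIM5 had a difference of -0.13 in repeat 4. Of those that fell, TRIM66 changed by -0.52 ± 0.15, TRIM65 by -0.24 ± 0.07 and TRIM21, a cytosolic antibody receptor, by -0.36 ± 0.11 (SE). After the GC and length correction TRIM65 changed by -0.08 and did not pass. Without repeat 1 the TRIM21 change of -0.31 did not pass (limma adjusted p = 0.0533).

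**Figure D3:**
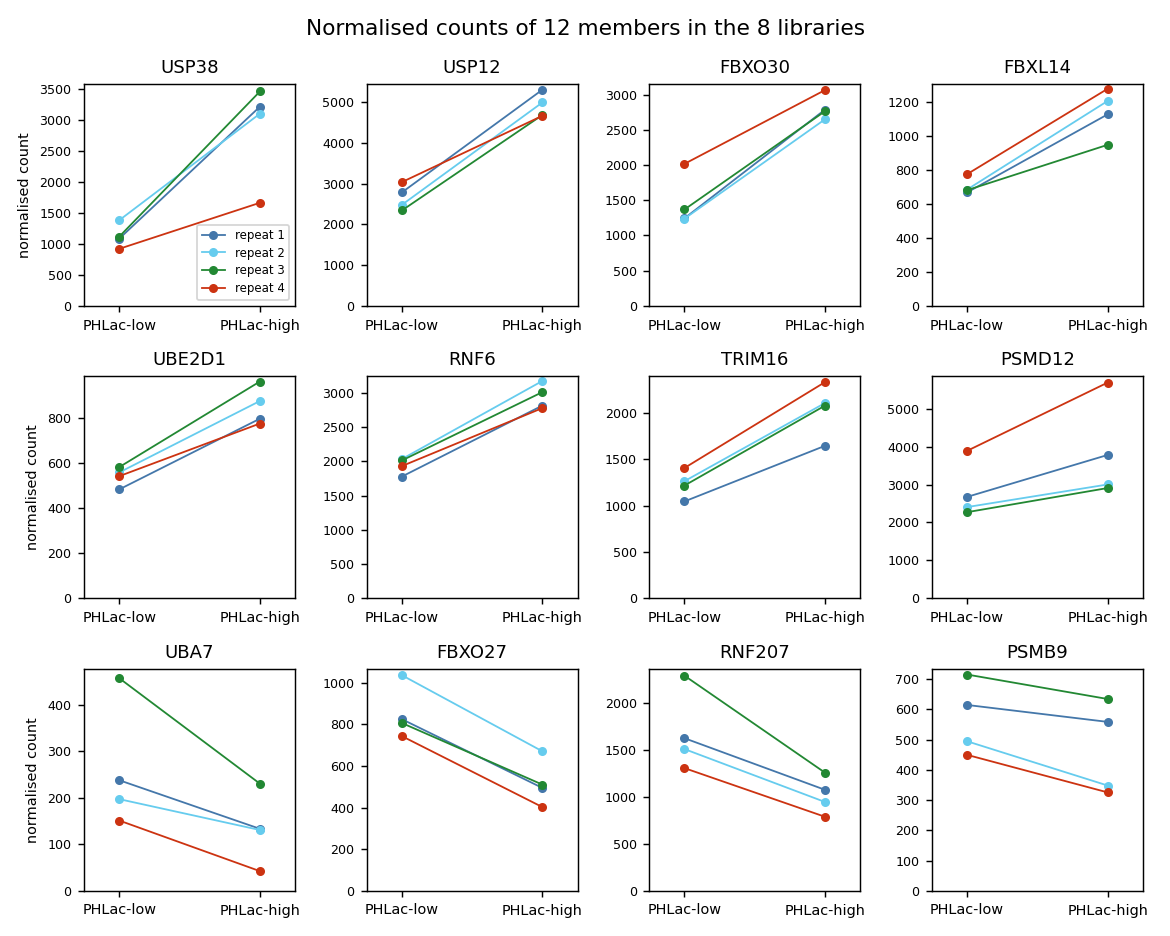
Normalised counts (vertical axes, each from 0) of 12 members in PHLac-low and PHLac-high, with a line joining the libraries of a repeat. USP38, USP12, FBXO30, FBXL14, UBE2D1, RNF6, TRIM16 and PSMD12 go up in every repeat, and UBA7, FBXO27, RNF207 and PSMB9 go down in every repeat.

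Of 12 deubiquitinases of the USP family, 11 rose and 1 fell, beside 58.7% and 41.2% of the listed genes. The median log2 change was 0.32. Under upper-quartile scaling the smallest rise, 0.23 for USP15, became 0.01, so no deubiquitinase changed sign. In that fit 3 passed as higher, near the 23.2% of listed genes. USP38 changed most of all members with a mean of 100 or more normalised counts. It had 1087, 1385, 1120 and 922 in PHLac-low and 3219, 3106, 3464 and 1666 in PHLac-high. The PHLac-high library of repeat 4 was well below the other PHLac-high libraries and still above every PHLac-low library. The log2 change was 1.30 ± 0.12 (SE; adjusted p = 0.000109 in limma), and 1.56, 1.16, 1.63 and 0.85 within repeats 1 to 4.

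USP12, which acts with the cofactor WDR48, had 2783, 2478, 2339 and 3035 in PHLac-low and 5301, 4989, 4682 and 4662 in PHLac-high. The groups were far apart compared with their spread, and the change was 0.89 ± 0.08 (SE; adjusted p = 7.79e-05 in limma). USP9X, an X-linked enzyme with many substrates, had 6676, 7261, 5944 and 5930 in PHLac-low and 10501, 9165, 9641 and 6417 in PHLac-high. Its change of 0.45 ± 0.10 (SE) was 0.11 in repeat 4, where the PHLac-high library fell within the PHLac-low range. USP7, which stabilises MDM2, rose by 0.42, USP36 of the nucleolus by 0.41, USP47 by 0.34 and USP16 by 0.31. USP14, which sits on the 19S particle, rose by 0.26, close to the proteasome genes, as did USP10, USP34 and USP15 (0.25, 0.26 and 0.23).

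USP21 was the deubiquitinase that fell. It averaged 1588 ± 182 and 1318 ± 213 (SD, n = 4), a change of -0.28 ± 0.06 (SE; adjusted p = 0.00432 in limma). Its difference was below 0 in all 4 repeats. Groups did not overlap for 6 of the 12 deubiquitinases, all with PHLac-high above, beside 23.3% of the listed genes. The promoter stretch of USP38 around its TGACNNNGC match is shown because this gene changed most, beside that of FBXO30, the F-box gene that changed most, and that of UBE2D1 around a TTCNNNGAA match. Capitals mark each match.
USP38, chr4:143184671-143184730, plus strand: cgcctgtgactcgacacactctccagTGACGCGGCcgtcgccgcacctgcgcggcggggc
FBXO30, chr6:145814869-145814928, minus strand: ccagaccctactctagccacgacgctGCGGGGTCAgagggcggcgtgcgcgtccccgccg
UBE2D1, chr10:58334930-58334989, plus strand: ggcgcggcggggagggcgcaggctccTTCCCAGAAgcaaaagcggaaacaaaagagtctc
TGACNNNGC was found in 2 of 11 deubiquitinase promoters (18.2%) and 6 of 40 ligase promoters (15%), against 11% of all promoters. TTCNNNGAA was in 1 of 10 conjugating enzyme promoters (10%), against 6.78%. The other deubiquitinase promoter with TGACNNNGC was that of USP14. Ligase promoters with it were those of FBXO30, RNF11, RNF113A and TRIM72, which rose, and of FBXO46 and RNF31, which fell. A tie between motif and direction was not tested.

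The antisense RNAs PSMD5-AS1 and PSMG3-AS1 were lower in PHLac-high. PSMD5-AS1 went from 598 ± 73.7 to 465 ± 83.8 normalised counts and PSMG3-AS1 from 493 ± 41.7 to 372 ± 51.2 (SD, n = 4). Their log2 changes were -0.37 ± 0.09 and -0.41 ± 0.09 (SE). After the GC and length correction PSMG3-AS1 changed by -0.15 and did not pass (limma adjusted p = 0.25), and PSMD5-AS1 had no corrected value. The libraries keep strand by their protocol, but whether the counting used it is not given in the sources used here, so reads of these RNAs and of the genes they overlap may not be separated.

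Genes of the ubiquitin system outside the symbol patterns were read from a list of 187. The table held 45 of these 187, beside 16.7% of annotated protein-coding genes. Of the 45, 37 were higher and 8 lower, where the whole table had 58.7% higher and 41.2% lower. The median log2 change was 0.33 for the 45 and 0.25 for the whole table. UBB, which encodes ubiquitin as a chain of repeats, rose by 0.23 ± 0.06 (SE), while its change under upper-quartile scaling was 0.01 and did not pass. It had 65129, 58387, 52936 and 72874 in PHLac-low and 75915, 70185, 56120 and 92894 in PHLac-high, so the groups overlapped. Reads of ubiquitin repeats may be shared between genes, and its level is uncertain.

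ZFAND2A encodes a proteasome-associated protein induced by arsenite and heat, and it changed most of the 45 genes. Its counts were 313, 410, 468 and 511 in PHLac-low and 1857, 2066, 1406 and 1720 in PHLac-high. The lowest PHLac-high library was above the highest PHLac-low library by a wide margin, and the log2 change was 2.06 ± 0.16 (SE; adjusted p = 4.75e-05 in limma). NFE2L2, the transcription factor NRF2, went from 3553 ± 623 to 5897 ± 1296 (SD, n = 4), by 0.72 ± 0.08 (SE). POMP, the maturation factor of the 20S core, rose by 0.34, ADRM1, a ubiquitin receptor of the 19S particle, by 0.30, and TXNL1, a 19S-bound thioredoxin, by 0.33. MIDN, which carries proteins to the proteasome without ubiquitin, changed by -0.54 ± 0.09, with groups that did not overlap.

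Deubiquitinases of other families numbered 9 in the table, 8 higher and 1 lower (median 0.50), beside 58.7% and 41.2% of the listed genes. YOD1 and VCPIP1, which work with the segregase VCP, rose by 0.77 ± 0.10 and 0.74 ± 0.09 (SE), and OTUB2 changed by -0.58 ± 0.11. VCP itself and the other genes of the list's segregase and shuttle part were not in the table. Of the RING and U-box ligases, 9 of 11 rose, beside 58.7% of the listed genes. Among them BIRC3 and PELI1, which act in NF-kappaB signalling, rose by 0.79 ± 0.16 and 0.78 ± 0.18 (SE). BIRC3 differed by 0.10 in repeat 4 and by 0.95 to 1.09 in the others. NEDD4L and DDB2 changed by -0.40 ± 0.08 and -0.37 ± 0.08. ISG15 and its ligase HERC5, partners of UBA7, changed by -0.51 ± 0.11 and -0.72 ± 0.16 (SE).

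Set side by side over the libraries, the 4 larger classes had positive medians in every repeat and differed in how they followed the repeats. The median difference within repeats 1 to 4 was 0.21, 0.23, 0.19 and 0.40 for proteasome genes, and 0.24, 0.25, 0.20 and 0.34 for conjugating enzymes. For ligases it was 0.27, 0.29, 0.26 and 0.28, for deubiquitinases 0.39, 0.21, 0.40 and 0.33, and for all listed genes 0.22, 0.18, 0.17 and 0.20. In the TRIM group it was 0.55, 0.60, 0.51 and 0.34, the reverse of the proteasome in repeat 4. No test was made between classes, since genes of a class are not replicates.

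**Figure D4:**
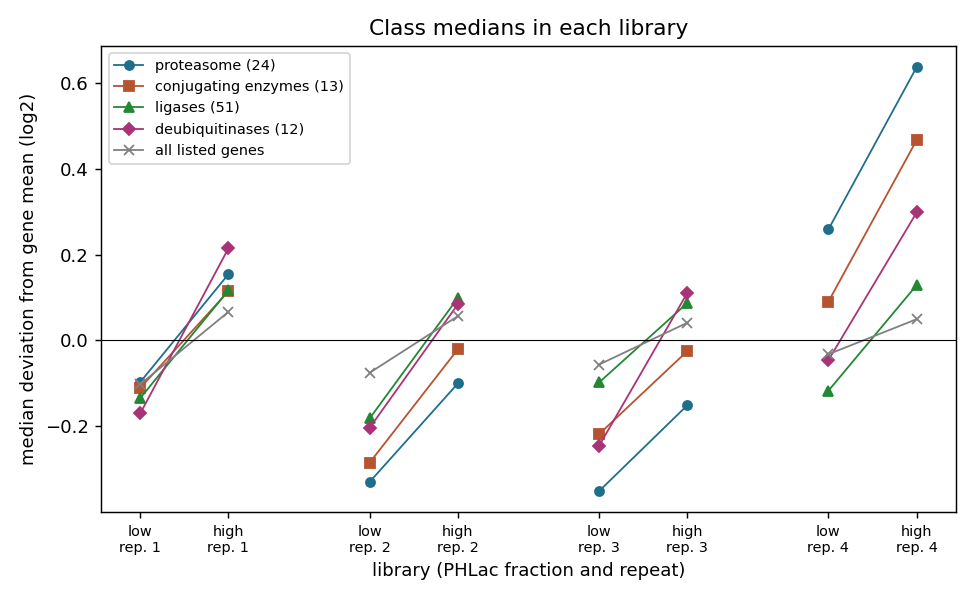
Median over the genes of a class of the deviation from each gene's mean (log2, vertical axis) in the 8 libraries, with a line from PHLac-low to PHLac-high of each repeat. Every line goes up, and the proteasome line runs from -0.35 in the PHLac-low library of repeat 3 to 0.64 in the PHLac-high library of repeat 4, the widest span drawn.

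The repeats also set how many members passed. Without pairing, 22 members were higher and 4 lower in limma, beside 20.3% and 10.7% of the listed genes. These comprised 0 proteasome genes, 3 conjugating enzymes, 18 ligases and 5 deubiquitinases. Base composition moved with direction too: the median transcript GC content was 45.3% for the members that were higher and 58.4% for those that were lower, beside 46.6% and 56.8% for the listed genes. After correction for GC content and length, 42 members passed as higher and 9 as lower, beside 39.0% and 25.7%, and 7 of the 24 proteasome genes passed as higher. The part of base composition in the changes was not tested further.

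**Figure D5:**
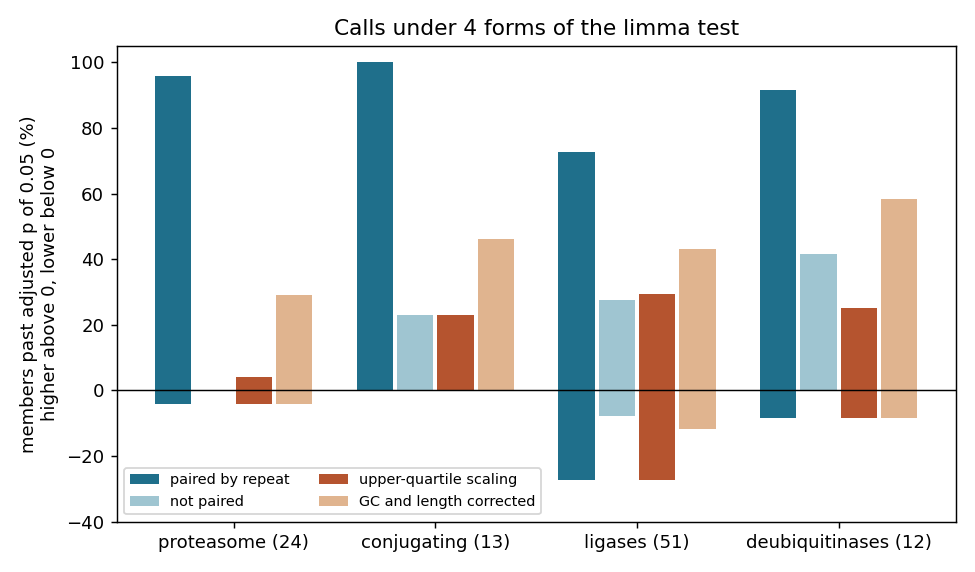
Share of the members of 4 classes past a limma adjusted p of 0.05, higher in PHLac-high above 0 and lower below 0, in the paired fit with the deposited scaling and in 3 other fits. The proteasome falls from 23 higher in the paired fit to 0 without pairing, 1 under upper-quartile scaling and 7 after correction for GC content and length.

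Levels were compared between genes per kilobase of the longest coding transcript. Among proteasome genes other than PSMB9 the mean level ran from 508 normalised counts per kilobase for PSME4 to 10289 for PSMA7, and PSMB9 stood at 654. Among conjugating enzymes UBE2S had 6788 and UBE2D1 263, so the enzyme with the largest change was at a low level. USP12 had 839 and USP38 285, FBXO2 2686 and FBXO30 238.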

How the data were processed

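Messenger RNA of 4 PHLac-low and 4 PHLac-high samples was measured. Per the submitters' processing notes, STAR, SAMtools, Subread and DESeq2 were used with build hg38, with no role or order given. Each of the 8 deposited signal columns holds read counts that the authors divided by 1 size factor: in every column 100% of values lay within 0.01 read of a multiple of its smallest step. The authors also deposited a log2 fold change and an adjusted p-value. In the authors' deposited table the log2 fold change of members differed from limma's by a median of 0.000543. All 3666 listed genes were fitted with limma 3.58.1 (R 4.3.3, mean-variance trend) on log2(value + 1), with the repeat as a block and Benjamini-Hochberg adjustment. Such changes understate those of low genes. Same-numbered libraries deviated together (correlations across genes of 0.534 to 0.763, at most 0.272 between different repeats), and the series text calls the samples paired. On simulated counts the fit was tested on known changes. Nothing says that repeats were separate cultures, so p-values measure only the spread between these samples. The adjustment covered only genes already listed for differing in these libraries. An adjusted p is therefore not a false discovery rate over all expressed genes. GC content and length came from GENCODE release 29 for 95.7% of genes and 103 of 104 members. Of 83 member promoters, 70 led into an annotated transcript. Alternatives were fits without the block, with upper-quartile scaling, a pseudocount of 0.1, a mean of at least 100, GC and length correction (lowess span 0.3), and without each repeat. Members and lists were chosen with earlier results of these data known. Named were every proteasome gene, the 3 largest changes each way per group at a mean of at least 100 and 1 each way below it, antisense RNAs, and the 6 largest each way of the other list with UBB. Results of a few named genes are not reported here. Other members are given by their change.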

Additional observations from a re-analysis of the deposited data

Results flagged for a closer look

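In 150 groups of 4 values of the 75 genes described most closely, the gap of the farthest value to its neighbour was set against the group's whole range on the log2 scale. By chance about 7.5 groups exceed Dixon's limit, and 12 did, of which 10 had a repeat 4 library as the far value. The groups share libraries and are not independent. The lowest value was the repeat 4 library for CUL7 in both fractions (0.917 of the range in PHLac-low and 0.926 in PHLac-high), RNF225 in both fractions (0.88 and 0.897), TRIM66 in PHLac-high (0.895), USP38 in PHLac-high (0.851) and HERC5 in PHLac-low (0.883). The highest value was the repeat 4 library for RNF182 in PHLac-high (0.95), PSMG1 in PHLac-high (0.837) and FBXL14 in PHLac-low (0.833). In PHLac-low the far value was the high library of repeat 3 for PSMD5-AS1 (0.903) and that of repeat 2 for TRIM72 (0.85).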

How the results depend on the processing

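Of the 85 members higher in PHLac-high, 22 passed in the same direction without the replicate block, 22 with upper-quartile scaling and 42 after correction for GC content and length. Of the 19 lower members, 4 passed without the block and 9 after that correction. Of the 37 higher genes of the other ubiquitin list, 12 passed without the block, 12 with upper-quartile scaling and 22 after the correction, and of its 8 lower genes 1 passed without the block. Of all genes fitted, whichever their direction, 20.3%, 23.2% and 39.0% passed as higher in these fits. As lower, 10.7% passed without the block and 25.7% after the correction. With upper-quartile scaling the median change became 0.0428 for the proteasome, 0.0556 for conjugating enzymes, 0.0683 for ligases and 0.0985 for deubiquitinases, and the correction to 0.0924, 0.126, 0.173 and 0.155. Leaving out each repeat gave 0.267 to 0.294 for the ligase median. The sign turned under upper-quartile scaling for PSMA1 (-0.0020), PSMA2 (-0.019), PSMA5 (-0.0067), PSMC1 (-0.0025) and PSMD7 (-0.017), and after the correction for PSMA2 (-0.073), PSMA3 (-0.048) and PSMD7 (-0.010). Upper-quartile scaling lowers every change by construction, and the cause of the other shifts was not tested. Without the replicate block 22 of the 75 named genes kept their call, and with a pseudocount of 0.1 all 75 did. The fits without 1 repeat lost PSMB9 (repeat 2) and TRIM21 (repeat 1) among these. edgeR and DESeq2 were not run. All values were multiples of 1 step per column, but some columns had too few low values for that step to be accepted as 1 read.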
